A study of Homo sapiens with 9 samples.

Results

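The 9 genes examined here were 7 encoding S100 proteins (S100A2, S100A4, S100A6, S100A10, S100A11, S100A13 and S100B) and 2 encoding galectins (LGALS1 and LGALS3). They were found by gene symbol in the platform annotation, and are 9 of the 11963 genes with a probe set of their own symbol. They were measured by 10 probe sets of the 22283 on the array, 2 of them for S100A13 and 1 for each other gene. The labels give IMR-32, a human neuroblastoma line that carries the oncogene MYCN amplified, as the cells of all 9 arrays, and the arrays labelled wild type go against that label in their markers, as given below. One group stably expressed 69-kDa choline acetyltransferase (ChAT, the enzyme that makes acetylcholine), another stably expressed its 82-kDa form, and the last was labelled wild type. Each had 3 arrays, described as biological replicates, so n = 3 for group values below that use all arrays. Values for replicate 1 alone rest on 1 array per group, and those for replicates 2 and 3 alone on 2. The sources used here do not give the promoter of the transgenes or say whether a line is 1 clone. As there was 1 line per form, form and line cannot be told apart. The values are intensities on a linear scale, summarised per probe set, and log2 intensities were compared with limma over the 22215 probe sets that are not controls, with a threshold of 0.05 on the Benjamini-Hochberg adjusted p.

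S100 proteins are small calcium-binding proteins that form dimers through paired EF-hand motifs and, on binding calcium, attach to partner proteins such as annexins, myosin and cytoskeletal regulators. S100A10 is the exception in its family: it does not respond to calcium and sits with annexin A2 (ANXA2) at the inner face of the plasma membrane. Galectins bind beta-galactoside sugars on glycoproteins, inside and outside the cell, and act in adhesion and signalling. S100B marks Schwann and other glial cells in nervous tissue, while S100A2 is known from epithelial cells, and S100A4, S100A6, S100A10, S100A11 and both galectins are common in mesenchymal and epithelial cells.

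Markers of cell type parted the lines from the arrays labelled wild type. Below, a rise or fall means higher or lower than on those arrays and does not show a change from parental cells. MYCN read 4181 to 5947 in the 69-kDa line, 4301 to 6118 in the 82-kDa line, against 62.5 to 120.5 on the arrays labelled wild type, so these last arrays go against the amplified gene of IMR-32; they are called by their label throughout. Of 13 measured neuroblastoma and sympathoadrenal markers 9 were higher in each line and 0 lower, and their summed intensity was 13156 to 21556 in the 69-kDa line, 16016 to 23498 in the 82-kDa line, against 2122 to 2604 on the arrays labelled wild type. Of 7 epithelial markers 6 were lower in each line, with sums of 307.5 to 347.9, 311.9 to 353.3 and 5457 to 6232 in the same order. Mesenchymal markers summed to 5038 to 8169, 5055 to 7210 and 12439 to 13739, mostly from VIM (3596 to 6786, 3635 to 5786 and 7707 to 8870). Of these 8 markers 2 were lower in the 69-kDa line, 3 were lower in the 82-kDa line and 0 were higher in either. Schwann and glial markers had similar sums in the groups (280.6 to 370.2, 285.2 to 420.2 and 287.5 to 323.3), where 1 of 4 was lower in each line, and SOX10, their defining factor, read 80.3 to 129.9 over all arrays. The 4 melanocyte markers summed to 512.7 to 802.4, 604.0 to 861.3 and 380.5 to 422.0, and 1 of them, PMEL, was higher in each line (2.74-fold and 2.98-fold), while MITF, TYR and MLANA did not pass. The part of these differences in the results for S100 and galectin genes was not tested, and in bulk RNA fewer cells of a type cannot be told apart from less RNA per cell. Replicate 1 of every group also stood apart from replicates 2 and 3, so differences of members that passed are also given for the 2 sets apart. Differences of other genes from the arrays labelled wild type were not split in this way.

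In the RefSeq gene table (assembly GRCh38.p14) S100A10, S100A11, S100A6, S100A4, S100A2 and S100A13 lie in that order, with other genes between them, on chromosome 1, LGALS3 is on chromosome 14, S100B on chromosome 21 and LGALS1 on chromosome 22. The promoter table of RefSeq for the same build had windows for 7 of the 9 genes. The 250 bases before the annotated start are shown for the 3 genes with the largest falls and 1 probe set each, and for S100A6, the gene that rose, so that promoters of genes with opposite differences can be compared. Capitals mark matches on either strand to the GC box GGGCGG, the TATA box TATAAA, the AP-1 site TGANTCA or the E box CACGTG.
S100A10, chr1:151993860-151994109 (minus strand): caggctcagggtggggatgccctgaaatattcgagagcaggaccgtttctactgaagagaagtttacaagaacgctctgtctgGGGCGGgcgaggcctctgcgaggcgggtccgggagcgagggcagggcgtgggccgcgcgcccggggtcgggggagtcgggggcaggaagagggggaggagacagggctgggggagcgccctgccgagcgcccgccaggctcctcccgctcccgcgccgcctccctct
S100A11, chr1:152037005-152037254 (minus strand): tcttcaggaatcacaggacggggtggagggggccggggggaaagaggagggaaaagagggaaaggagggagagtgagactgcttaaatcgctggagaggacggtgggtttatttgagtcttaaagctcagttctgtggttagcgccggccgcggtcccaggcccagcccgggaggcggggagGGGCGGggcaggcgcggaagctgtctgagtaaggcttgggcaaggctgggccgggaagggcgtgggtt
LGALS3, chr14:55129002-55129251 (plus strand): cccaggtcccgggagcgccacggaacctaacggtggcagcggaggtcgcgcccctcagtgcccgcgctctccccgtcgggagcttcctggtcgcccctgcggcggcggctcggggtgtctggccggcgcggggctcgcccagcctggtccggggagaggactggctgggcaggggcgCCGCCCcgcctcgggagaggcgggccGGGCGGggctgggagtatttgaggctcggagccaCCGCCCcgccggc
S100A6, chr1:153535992-153536241 (minus strand): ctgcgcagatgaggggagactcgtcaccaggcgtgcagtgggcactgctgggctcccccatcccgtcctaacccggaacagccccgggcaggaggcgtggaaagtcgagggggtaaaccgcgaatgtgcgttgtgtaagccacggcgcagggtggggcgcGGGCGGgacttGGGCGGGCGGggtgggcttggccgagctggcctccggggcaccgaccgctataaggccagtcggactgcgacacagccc

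All 4 windows held at least 1 GC box, with 1 match in S100A10, 1 in S100A11, 3 in LGALS3 and 3 in S100A6, of which 2 overlap. That motif was in 42.6% of the 35116 promoter windows of this length in the table. None of the 4 held TATAAA (10.7% of all windows), TGANTCA (6.57%) or CACGTG (6.34%). The windows held 24 CpG dinucleotides in S100A10, 15 in S100A11, 32 in LGALS3 and 24 in S100A6, against a median of 11 over all windows. The genes that fell and the gene that rose both held the GC box and none of the other 3 motifs in these letters. Of the others, the S100A4 window held 1 TATAAA and the first of 2 windows of S100A2 held 1 TGANTCA. Of the 3 windows of S100A13, the first held 1 GC box and the second 1 TATAAA. Matches are descriptions of sequence and do not show binding.

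In both lines S100A10, S100A11, LGALS3 and, by the brighter of its probe sets only, S100A13 were lower than on the arrays labelled wild type. S100A6 was higher. S100A10 and S100A11, which pair with annexins A2 and A1, had the widest differences of the 10 probe sets. S100A2, S100A4, S100B and LGALS1 did not pass the test in either comparison. Of the 10 probe sets 4 were lower and 1 higher in the 69-kDa line, against array-wide shares of 15.3% lower and 10.9% higher. The same counts, 4 and 1, held for the 82-kDa line, against 15.7% lower and 11% higher on the whole array. The median log2 difference of the 10 probe sets was -0.18 in the 69-kDa line, with -0.23 in the 82-kDa line, beside 0.058 and 0.062 over all probe sets. Both comparisons use the same 3 arrays labelled wild type. The members were chosen with earlier results of these data known, so the counts beside the array-wide shares are no test of the families.

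**Figure D1:**
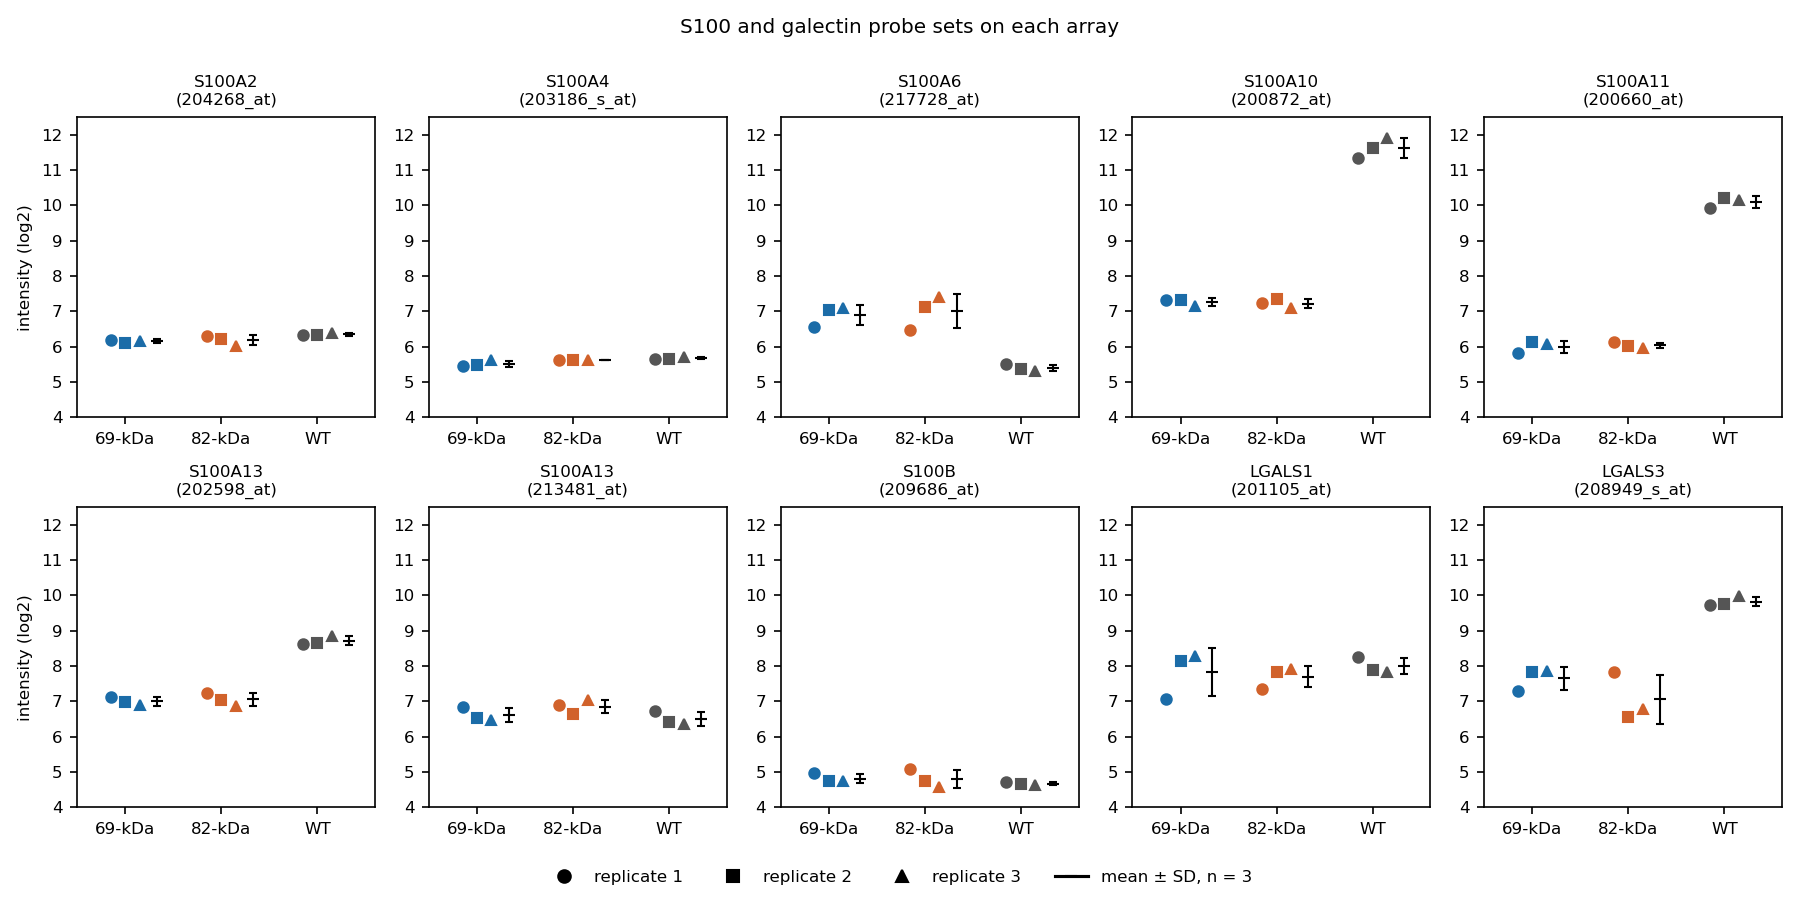
Log2 intensity of the 10 probe sets on each array. Each panel is 1 probe set, with the 69-kDa line, the 82-kDa line and the arrays labelled WT from left to right, symbols for the replicate number, and bars for the mean ± SD (n = 3). S100A10, S100A11, LGALS3 and 1 S100A13 probe set lie lower in both lines than on the WT arrays, and S100A6 lies higher.

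S100A10, the calcium-insensitive partner of ANXA2, read 159.8, 160.3 and 141.2 in replicates 1 to 3 of the 69-kDa line, 149.4, 161.6 and 137.7 on the 82-kDa arrays and 2603, 3168 and 3795 on the arrays labelled wild type. The line arrays lay within a narrow range and far below every array labelled wild type. S100A10 was 20.5-fold lower in the 69-kDa line (log2 difference -4.36, SE 0.14, limma adjusted p = 1.8e-07) and 21.1-fold lower in the 82-kDa line (-4.40, SE 0.14, adjusted p = 1.6e-07). In replicate 1 alone the falls were 16.3-fold and 17.4-fold, and in replicates 2 and 3 they were 23.1-fold and 23.2-fold.

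S100A11, which binds annexin A1 (ANXA1), read 56.2, 69.6 and 67.2 on the 69-kDa arrays, 69.6, 65.0 and 62.3 on the 82-kDa arrays and 965, 1190 and 1139 on the arrays labelled wild type. The line values are close to the lower quartile of all intensities on an array (55.9 to 62.5), so the folds are set against signal near background. S100A11 was 17.1-fold lower in the 69-kDa line (log2 difference -4.09, SE 0.11, limma adjusted p = 8.9e-08) and 16.7-fold lower in the 82-kDa line (-4.06, SE 0.11, adjusted p = 8.9e-08). In replicate 1 the falls were 17.2-fold and 13.9-fold, and in replicates 2 and 3 they were 17.0-fold and 18.3-fold.

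S100A13, which takes part in the release of FGF1 and interleukin-1 alpha from cells, was measured by 2 probe sets that disagreed. The brighter read 139.6, 126.1 and 118.8 on the 69-kDa arrays, 150.6, 132.0 and 117.7 on the 82-kDa arrays and 394.5, 402.6 and 463.3 on the arrays labelled wild type, with no overlap. It was 3.28-fold lower in the 69-kDa line (limma adjusted p = 1.2e-05) and 3.16-fold lower in the 82-kDa line (adjusted p = 1.5e-05). Its falls were 2.83-fold and 2.62-fold in replicate 1, and 3.53-fold and 3.46-fold in replicates 2 and 3. The dimmer read 115.1, 93.0 and 88.2 on the 69-kDa arrays, 118.4, 99.9 and 130.7 on the 82-kDa arrays and 106.8, 85.8 and 81.6 on the arrays labelled wild type, and its groups overlapped. It differed by 0.11 on the log2 scale in the 69-kDa line (limma adjusted p = 0.63) and by 0.35 in the 82-kDa line (adjusted p = 0.13; 0.030 in replicates 2 and 3 alone). The direction for S100A13 therefore rests on 1 of its 2 probe sets.

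S100A6, which binds the calcyclin-binding protein CACYBP, was the one gene of the 9 that rose. It read 94.9, 131.6 and 136.6 on the 69-kDa arrays, 88.2, 139.9 and 169.0 on the 82-kDa arrays and 45.2, 41.4 and 39.9 on the arrays labelled wild type. All line arrays lay above all arrays labelled wild type, and those 3 read below the lowest lower quartile of any array (55.9). The folds are therefore set against signal near background, and their size is uncertain. S100A6 was 2.84-fold higher in the 69-kDa line (log2 difference 1.50, SE 0.23, limma adjusted p = 0.0014) and 3.03-fold higher in the 82-kDa line (1.60, SE 0.23, adjusted p = 0.0010). The rise was 2.10-fold and 1.95-fold in replicate 1, and 3.30-fold and 3.78-fold in replicates 2 and 3. The probe sets of CACYBP itself disagreed. The brightest differed by 0.027 (limma adjusted p = 0.92) in the 69-kDa line and by 0.29 (adjusted p = 0.26) in the 82-kDa line. The next brightest, examined with the others after their values were seen, read 1544 to 1845, 1706 to 1864 and 1106 to 1365 in the same order. It was 1.44-fold higher in the 69-kDa line (limma adjusted p = 0.0067) and 1.49-fold higher in the 82-kDa line (adjusted p = 0.0042). The dimmer ones did not pass in either line.

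S100A4, a binding partner of non-muscle myosin, read 43.7 to 49.0 in the 69-kDa line, 49.0 to 49.3 in the 82-kDa line, against 50.4 to 51.9 on the arrays labelled wild type, below 55.9 on all 9. Neither line overlapped the arrays labelled wild type, but the log2 differences were -0.16 in the 69-kDa line (95% interval -0.32 to 0.0051, limma adjusted p = 0.15) and -0.056 in the 82-kDa line (-0.22 to 0.11, adjusted p = 0.60). S100A2 read 68.5 to 73.4, 65.4 to 79.4 and 80.0 to 84.1 in the same order, also without overlap, and differed by -0.19 (-0.39 to 0.0082, adjusted p = 0.16) and -0.16 (-0.36 to 0.036, adjusted p = 0.22). S100B, the glial member and a ligand of the receptor AGER, read 26.8 to 31.2, 23.8 to 34.2 and 24.9 to 26.2, again below 55.9 on all arrays. Its differences were 0.14 (-0.16 to 0.45, limma adjusted p = 0.48) and 0.13 (-0.17 to 0.43, adjusted p = 0.50). The 69-kDa values of S100B lay just above those labelled wild type and the 82-kDa values overlapped them. Signals this dim limit what the S100A4 and S100B probe sets can show.

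LGALS3, galectin-3, read 155.9, 226.9 and 230.3 on the 69-kDa arrays, 229.3, 93.7 and 110.2 on the 82-kDa arrays and 851, 870 and 1003 on the arrays labelled wild type. The lines overlapped each other and lay below all arrays labelled wild type. LGALS3 was 4.50-fold lower in the 69-kDa line (log2 difference -2.17, SE 0.31, limma adjusted p = 0.00091) and 6.80-fold lower in the 82-kDa line (-2.76, SE 0.31, adjusted p = 0.00023). In replicate 1 the falls were 5.46-fold and 3.71-fold, and in replicates 2 and 3 they were 4.09-fold and 9.19-fold, so the order of the lines depended on the arrays used.

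LGALS1, galectin-1, read 132.8, 283.5 and 312.6 on the 69-kDa arrays, 162.9, 227.6 and 240.0 on the 82-kDa arrays and 305.4, 235.7 and 229.6 on the arrays labelled wild type. The groups overlapped, and replicate 1 was the low array in each line and the high one among those labelled wild type. The log2 difference was -0.16 in the 69-kDa line (95% interval -0.87 to 0.55, limma adjusted p = 0.73) and -0.30 in the 82-kDa line (-1.01 to 0.41, adjusted p = 0.52). In replicate 1 the differences were -1.20 and -0.91. In replicates 2 and 3 they were 0.36 (limma adjusted p = 0.0089) and 0.0072 (adjusted p = 0.95), so that LGALS1 was 1.28-fold higher in the 69-kDa line there. In those arrays the whole-array shares were 18.5% higher and 20.5% lower for the 69-kDa line, and 19.4% higher and 20.2% lower for the 82-kDa line.

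**Figure D2:**
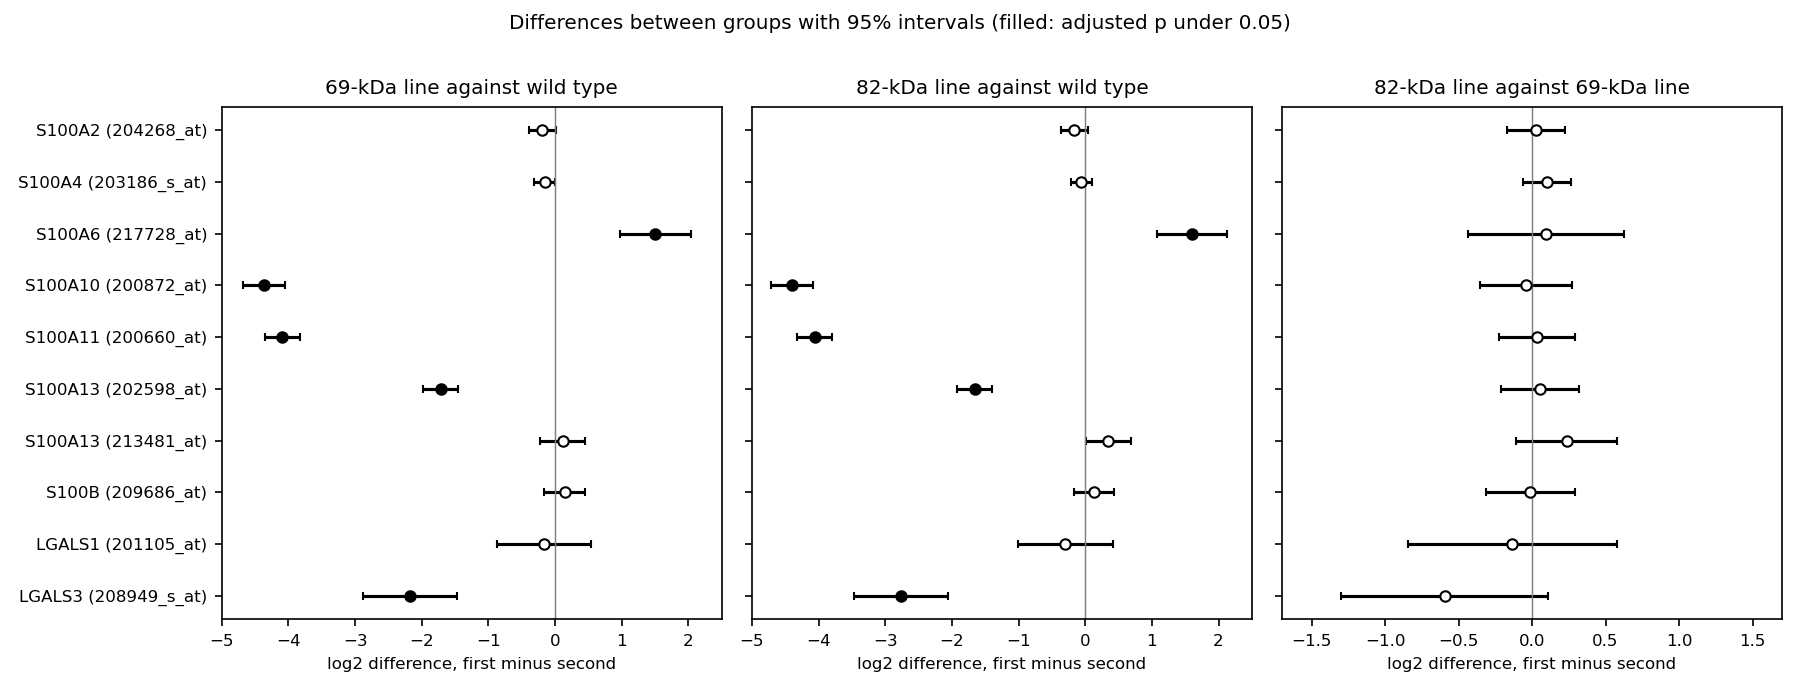
Log2 differences of the 10 probe sets in the 3 comparisons, with 95% intervals from limma. The x axis is the first group minus the second, and filled points have an adjusted p under 0.05. There 4 probe sets are lower and 1 is higher in each line than on the arrays labelled wild type, and 0 differ between the lines.

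With all arrays in the limma fit, 0 of the 10 probe sets passed between the lines, against 0% of the whole array in either direction. At an unadjusted p under 0.05 the counts were 0 of the 10 and 733 of all probe sets. The log2 difference of the 82-kDa line from the 69-kDa line was -0.041 for S100A10 (95% interval -0.36 to 0.27) and 0.033 for S100A11 (-0.23 to 0.29). It was 0.097 for S100A6 (-0.43 to 0.63) and 0.054 for the brighter S100A13 probe set (-0.21 to 0.32). It was 0.24 for the dimmer S100A13 probe set (-0.11 to 0.58), 0.028 for S100A2 (-0.17 to 0.23), 0.10 for S100A4 (-0.061 to 0.26) and -0.013 for S100B (-0.32 to 0.29). The intervals bound differences between the lines and do not show that the lines were alike. The intervals were widest for the galectins, LGALS1 at -0.13 (-0.84 to 0.58) and LGALS3 at -0.59 (-1.30 to 0.11).

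LGALS3 was the one member that differed between the lines once replicate 1 was left out. In replicates 2 and 3 it read 93.7 and 110.2 in the 82-kDa line and 226.9 and 230.3 in the 69-kDa line, 2.25-fold lower in the 82-kDa line (log2 difference -1.17, limma adjusted p = 0.0063). In replicate 1 it read 229.3 in the 82-kDa line, against 155.9 in the 69-kDa line, a difference the other way (0.56). In replicates 2 and 3, the 82-kDa line was lower in 1.06% and higher in 0.981% of all probe sets, 454 in all. For 265 of these 454 (58.4%) the difference in replicate 1 had the opposite sign. CHAT itself, by its 1 probe set, read 1066, 422.7 and 1067 in the 82-kDa line and 256.0, 175.4 and 176.8 in the 69-kDa line, with the 82-kDa value above its 69-kDa counterpart in every replicate; over all arrays this did not pass (limma adjusted p = 0.70). The arrays labelled wild type read 147.6, 125.1 and 114.2, and CHAT passed against them in the 82-kDa line (adjusted p = 0.00057) and not in the 69-kDa line (adjusted p = 0.23).

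**Figure D3:**
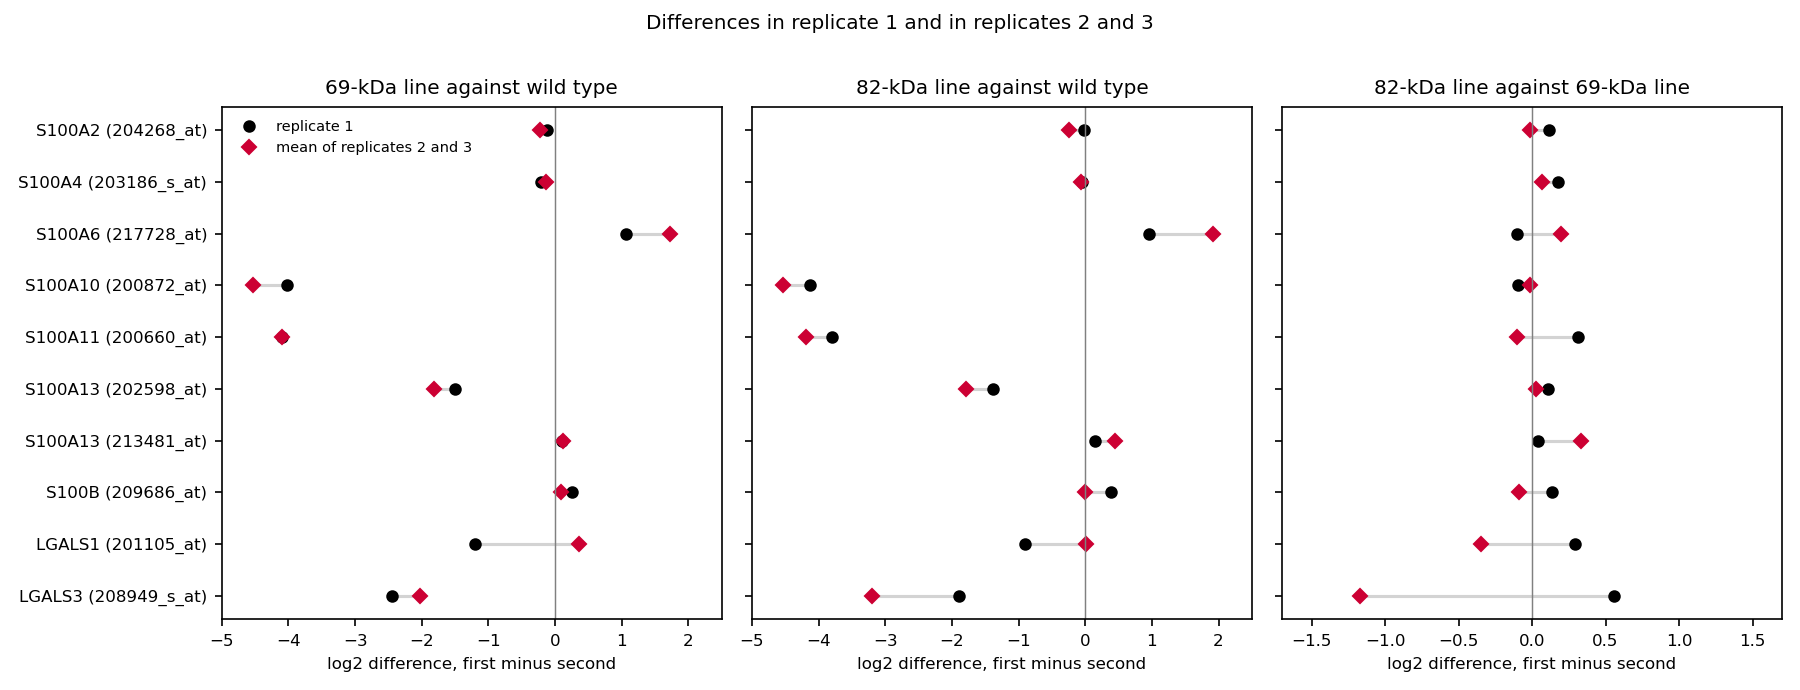
Log2 differences of the 10 probe sets in replicate 1 (circles) and in the mean of replicates 2 and 3 (diamonds), first group minus second, for the 3 comparisons. LGALS3 changes sign between the 2 sets of arrays in the comparison of the lines (0.56 and -1.17), and LGALS1 in that of the 69-kDa line with wild type (-1.20 and 0.36). Smaller changes of sign between the lines are those of LGALS1 (0.29 and -0.35), S100A11 (0.31 and -0.10), S100A6 (-0.11 and 0.20), S100A2 and S100B. LGALS1 also changes sign in the 82-kDa line against wild type (-0.91 and 0.0072).

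Other genes of both families did not pass the test by the brightest probe set of each. Of 10 other S100 genes 0 passed the limma test in either comparison with wild type, beside 17.7% of all 11963 genes lower and 11.7% higher in the 69-kDa line and 18.5% and 11.8% in the 82-kDa line. At an unadjusted p under 0.05 the counts were 0 in the 69-kDa line, with 2 in the 82-kDa line. S100A1, a member known from muscle, differed by 0.22 in the 69-kDa line (limma adjusted p = 0.29) and by 0.35 in the 82-kDa line (adjusted p = 0.086). S100A14 differed by 0.15 and 0.17, S100A8, a neutrophil and monocyte protein, by 0.17 and 0.18, and S100A7, known from skin, by 0.052 and 0.17, with adjusted p of 0.12 or more. Of 8 other galectin genes 0 passed, and 0 had an unadjusted p under 0.05 in either comparison. Those with the smallest adjusted p were CLC, an eosinophil galectin, LGALS2, LGALS14 and LGALS13, with differences of 0.053 to 0.19 and adjusted p of 0.26 or more. The median difference in the 69-kDa and 82-kDa line was 0.14 and 0.17 for the other S100 genes, 0.100 and 0.098 for the other galectins and 0.052 in both over all genes. Several of these genes read below 55.9 on all arrays, such as S100A8 (26.9 to 33.5), S100A7 (36.7 to 43.7) and LGALS2 (36.7 to 44.8). Signals this dim limit what their probe sets can show.

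For LGALS8, a galectin with paired sugar-binding domains, the probe sets disagreed. The brightest read 101.7 to 115.7 in the 69-kDa line, 103.8 to 114.7 in the 82-kDa line, against 108.0 to 116.3 on the arrays labelled wild type (limma adjusted p = 0.79 and 0.74). The other 5 LGALS8 probe sets, examined after their values were seen, were all lower in both lines. The brightest of these 5 read 68.1 to 104.4, 71.4 to 80.7 and 158.8 to 175.9 in the same order, 2.09-fold lower in the 69-kDa line (limma adjusted p = 0.00094) and 2.21-fold lower in the 82-kDa line (adjusted p = 0.00062). The next brightest was 3.27-fold and 3.16-fold lower, with line values of 43.0 to 48.3, near background.

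Neighbours of the S100 genes on chromosome 1 did not pass the test either. The list of genes between THEM4 and ILF2 left out the members and held 92 genes, of which 25 were measured. Of these 25, 8 are S100 genes counted above. The stretch holds the epidermal differentiation genes and the 6 S100 members left out. Of those members S100A10, S100A11, S100A6 and the brighter S100A13 probe set passed, as given above, so the counts here cover the other genes only. By limma 0 of the 25 passed in either comparison, and at an unadjusted p under 0.05 there was 1 in the 69-kDa line, with 4 in the 82-kDa line. Over all genes 17.7% were lower and 11.7% higher in the 69-kDa line, 18.5% lower and 11.8% higher in the 82-kDa line, and 7854 and 8110 of the 22215 probe sets had an unadjusted p under 0.05. CHTOP, a chromatin and mRNA export factor, came closest, with log2 differences of 0.45 (adjusted p = 0.087) and 0.51 (adjusted p = 0.056). IVL, the cornified envelope protein involucrin, differed by 0.15 (adjusted p = 0.37) and 0.28 (adjusted p = 0.091). The median difference of the 25 was 0.14 in the 69-kDa line, with 0.18 in the 82-kDa line, beside 0.052 in both over all genes. Many of the 25 read below 55.9 on all arrays, such as FLG (17.5 to 21.0) and S100A8 (26.9 to 33.5). For such genes a count of 0 does not show that they were unchanged.

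Among 21 measured binding partners 8 were lower and 3 higher in the 69-kDa line, and 8 were lower and 2 higher in the 82-kDa line, against the shares of all genes given above. The median log2 difference of the partners was -0.29 and -0.24. This list, too, was chosen with earlier results of these data known, so its counts are no test of the partners as a set. ANXA1, the partner of S100A11, read 26.5 to 34.7 in the 69-kDa line, 27.1 to 36.6 in the 82-kDa line, against 908 to 947 on the arrays labelled wild type, and was lower in the lines, as S100A11 was (limma adjusted p = 8.1e-08 and 7.7e-08). MYH9, the myosin heavy chain that S100A4 binds, was 320.9 to 376.0, 315.8 to 375.8 and 890 to 959 in the same order, with log2 differences of -1.41 (adjusted p = 1.5e-05) and -1.37 (adjusted p = 1.8e-05). PLAT, the tissue plasminogen activator, which binds S100A10 at the cell surface, read 38.3 to 41.8, 41.1 to 50.8 and 126.7 to 159.8 in that order, lower in both lines (adjusted p = 8.1e-06 and 1.6e-05). SYT1, the synaptic calcium sensor that joins S100A13 in a release complex with FGF1, differed the other way, with 1202 to 1672, 886 to 1773 and 42.6 to 59.2 (adjusted p = 3.0e-06 and 3.6e-06). The line values of ANXA1 and PLAT and the values of SYT1 labelled wild type lie near or below the lower quartiles of the arrays (55.9 to 62.5), so the sizes of these differences are uncertain.

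ANXA2, the partner of S100A10, differed in the other direction. It and LGALS3BP were singled out after their values were seen. Its brightest probe set read 5866, 7778 and 7594 on the 69-kDa arrays, 7666, 5138 and 5650 on the 82-kDa arrays and 2979, 3659 and 4057 on the arrays labelled wild type. All line arrays lay above all arrays labelled wild type, and ANXA2 was 1.99-fold higher in the 69-kDa line (limma adjusted p = 0.0039) and 1.71-fold higher in the 82-kDa line (adjusted p = 0.013). Its other probe sets gave 1.88-fold and 2.09-fold in the 69-kDa line and 1.79-fold and 1.92-fold in the 82-kDa line, and all 3 carry the suffix _x_at, which marks probes that can match other transcripts. ANXA2 and S100A10 were thus apart in direction in both comparisons, by 0.99 and -4.36 on the log2 scale in the 69-kDa line and by 0.78 and -4.40 in the 82-kDa line. In replicates 2 and 3 the log2 difference of ANXA2, 82-kDa minus 69-kDa line, was -0.51 (limma adjusted p = 0.036), and in replicate 1 it was 0.39. LGALS3BP, a glycoprotein that galectin-3 binds, read 201.3 to 432.5 in the 69-kDa line, 323.1 to 507.7 in the 82-kDa line, against 1192 to 1292 on the arrays labelled wild type, lower in the lines as LGALS3 was (adjusted p = 0.00099 and 0.0033).

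**Figure D4:**
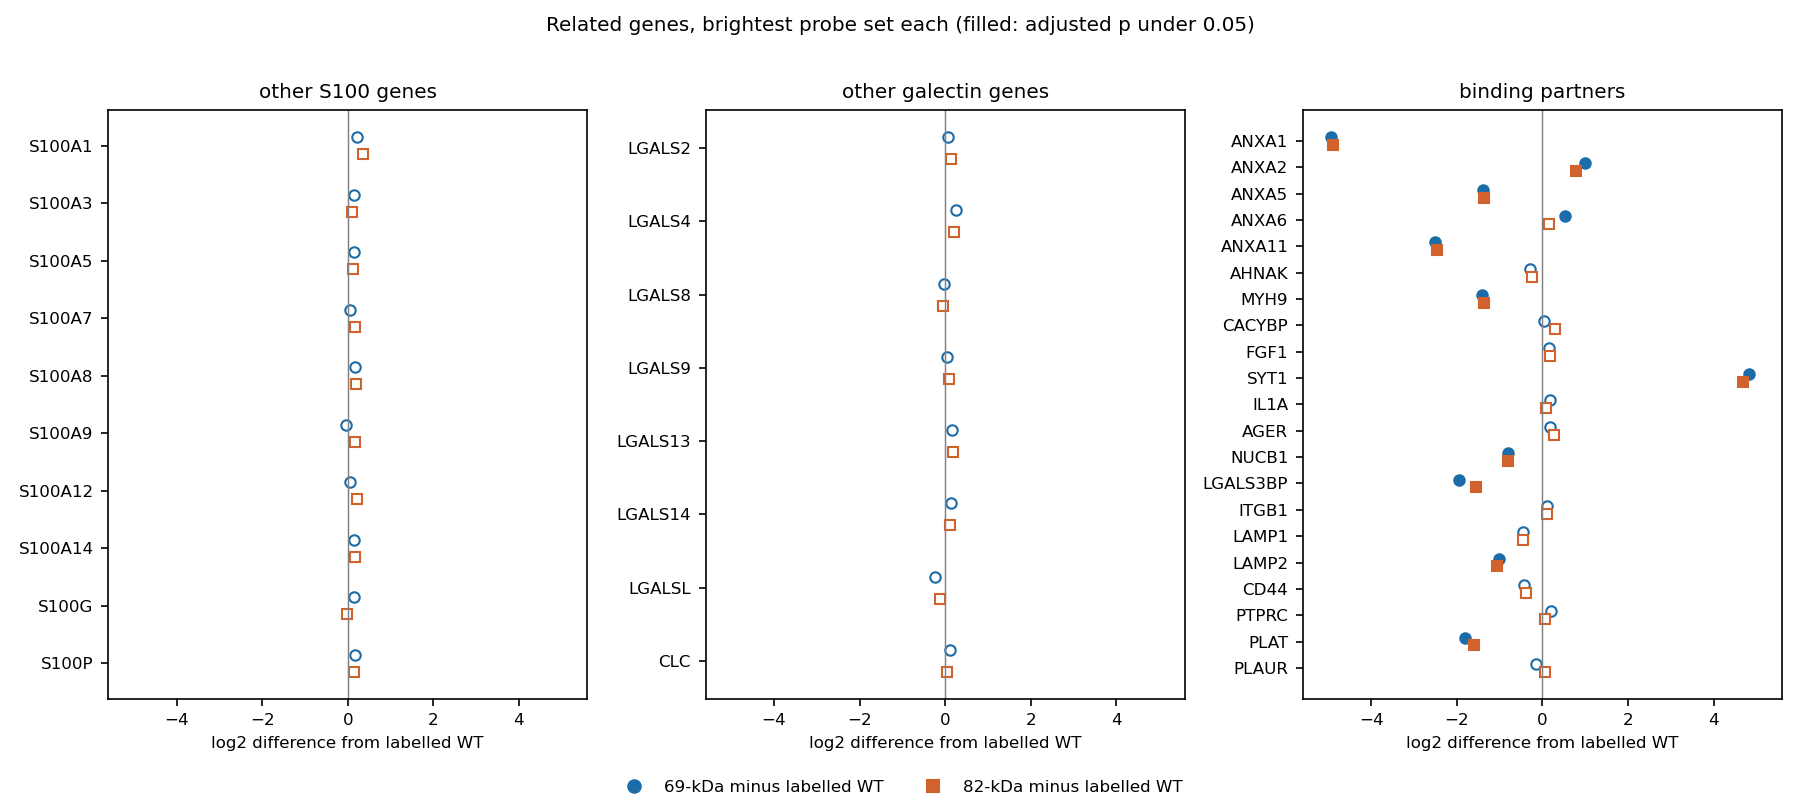
Log2 difference of each line from the arrays labelled WT for other S100 genes, other galectin genes and binding partners, by the brightest probe set of each gene. Circles are the 69-kDa line and squares the 82-kDa line, and filled symbols have an adjusted p under 0.05. The 10 other S100 and 8 other galectin genes lie near 0, while ANXA1 lies near -4.9 and SYT1 near 4.7 to 4.8.

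Profiles most like those of the members were sought among all probe sets with 1 other gene symbol, by the root mean square difference of log2 values over the 9 arrays after each was centred on its mean. The nearest to S100A11 were DSG2, a desmosome cadherin (0.091), and GATA6, an endoderm transcription factor (0.11), and the nearest to S100A10 were CCND2, a D-type cyclin (0.10), and VAMP8, a vesicle fusion protein (0.14). The brighter S100A13 probe set, the only one of that gene used here, lay nearest to HOXD11 (0.090) and MAP7 (0.099). S100A6 lay nearest to TFB2M (0.093) and QDPR (0.10). The nearest to LGALS3 were farther away, CBR1 at 0.34 and EMP3 at 0.36, although its range over the arrays, 3.42, was smaller than that of S100A10 (4.78). LGALS1 was nearest to UBAP2 and ITM2B, at 0.16 each. The probe sets of S100A2, S100A4 and S100B ranged over 0.25 to 0.53 in all, so their nearest profiles (LYPLA2 and HBEGF, TPI1 and ZNF710, SLC66A3 and SYTL2) are those of other probe sets with little difference between arrays.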

How the data were processed

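Gene expression was measured in 9 samples on single-channel oligonucleotide arrays with 22283 probe sets. Groups and replicate numbers come from the sample titles. The deposited intensities were made by the authors with RMA, a method for background correction, normalization between arrays and summary over probes, per the submitters' processing notes (no version is named). They are on a linear scale, from 14.9 to 21486. RMA usually gives log2 values; the sources used here do not say how they were returned to a linear scale. The number of arrays limits the precision. No 2 arrays held identical values.

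The 68 AFFX controls were left out, and log2 intensities of 22215 probe sets were modelled in R 4.3.3 by limma 3.58.1, using lmFit on 3 group means over all 9 arrays, contrasts and two-sided eBayes tests, with Benjamini-Hochberg adjustment over all probe sets of a contrast. The fit was tested on simulated data. Only the 19065 probe sets with 1 gene symbol were named, and the Entrez identifiers of all 9 members matched the RefSeq gene table. The text names all member probe sets, and up to 4 genes of each list (other S100 genes, other galectins, binding partners, chromosome 1 neighbours) with the smallest adjusted p against wild type, the 2 nearest profiles of each member, and genes said to be chosen after their values were seen. The members and lists were chosen with earlier results of these data known. Each list gene stands for its brightest probe set (11963 genes).

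Deviations of same-numbered arrays from their group means had correlations, over probe sets, of 0.28 to 0.57 in each of 9 pairs, so the replicate number was used as a block in an alternative fit. Across groups, replicate 2 against replicate 3 gave 0.21 to 0.48, and replicate 1 against either gave -0.59 to -0.28. No label names a batch or day. Other alternatives were array scaling, a pseudocount of 16, a filter on dim probe sets, eBayes with trend and robust settings, the 6 arrays compared, replicates 2 and 3 alone, and each array left out. Promoter letters came from RefSeq (GRCh38.p14).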

Additional observations from a re-analysis of the deposited data

Results flagged for a closer look

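LGALS3 differed between the lines in replicates 2 and 3 by -1.17 on the log2 scale, 82-kDa minus 69-kDa line (limma adjusted p = 0.0063), lower in both of those 82-kDa arrays, while the difference was 0.56 in replicate 1 and did not pass over all arrays (-0.59, adjusted p = 1.0). The difference between the lines, tested directly, is what drew attention to it. The groups of 3 arrays are too small for a test of single outlying arrays.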

How the results depend on the processing

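The 10 member differences that passed (5 probe sets in each line against wild type) were followed through 17 alternative fits. They kept their direction and passed in every fit that held them, 168 values in all, with limma adjusted p of at most 0.0082. With the replicate block 4 member probe sets were lower and 1 higher in each line, as without it, and the block changed no member's call. With probe sets above the median level only, 0 members were higher in either line, since S100A6 was no longer in the fit. In replicates 2 and 3 only, 2 were higher in each line (LGALS1 joined in the 69-kDa line, the dimmer S100A13 probe set, at 0.45, in the 82-kDa line). There 1 member (LGALS3) and 454 of all probe sets differed between the lines, against 0 with all arrays.

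Leaving out 1 array in turn gave 4466 to 6736 probe sets called in the 69-kDa line, 4687 to 6589 in the 82-kDa line and 0 to 36 between the lines (8 without replicate 1 of the 69-kDa line, 36 without replicate 1 of the 82-kDa line and 1 without its replicate 2). Changes of sign were in differences that had not passed with all arrays. In replicates 2 and 3 only, LGALS1 was at 0.36 (adjusted p = 0.0089) in the 69-kDa line, with 0.0072 in the 82-kDa line against wild type, and S100A2 at -0.015 and S100A11 at -0.10 between the lines. With 1 array left out the log2 difference from wild type in the 69-kDa line was -0.0033 to 0.23 for the dimmer S100A13 probe set and -0.39 to 0.23 for LGALS1, and that of S100B in the 82-kDa line -0.016 to 0.25. Between the lines it was -0.036 to 0.10 for S100A2, -0.10 to 0.36 for S100A6, -0.10 to 0.018 for S100A10, -0.061 to 0.093 for S100A11, -0.037 to 0.14 for the brighter S100A13 probe set, -0.16 to 0.10 for S100B and -0.52 to 0.095 for LGALS1. The cause was not tested. Intensities near background limit S100A4 and S100B on all arrays.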
